A study of Homo sapiens with 6 samples.

Results

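The miR-23, miR-27 and miR-24 microRNAs are cut from 2 short polycistrons, transcripts that each carry 3 hairpins in a row, and they were followed here in exosomes, the small vesicles that cells release. Every arm of miR-23a, miR-23b, miR-27a, miR-27b and miR-24 was taken by name from the count tables, which gave 11 of the 2575 mature miRNA entries listed. The 3 libraries titled ETBF came from HCT116 cells, an established human colorectal cancer line, at passage 16 to 19, grown for 6 h at a multiplicity of infection of 500 together with ETBF, that is Bacteroides fragilis strains that make an enterotoxin. The 3 libraries titled untreated came from the same line given the bacterial medium alone. The study set these side by side to see how the bacterium alters exosomal miRNAs. The names of the deposited files carry the opposite group to the titles in 6 of 6 libraries. Groups follow the titles here, and should the file names be correct instead, each direction between the groups turns round while sizes, errors and p-values stay. Whether replicates were separate cultures is not in the labels, and the p-values cover only the spread seen among these libraries, perhaps a technical one.

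One cluster lies on chromosome 19 and holds MIR23A, MIR27A and MIR24-2, and the other lies on chromosome 9 and holds MIR23B, MIR27B and MIR24-1. In each hairpin the 3p arm is the usual guide strand, the one loaded into Argonaute to repress messenger RNAs that pair with its seed (bases 2 to 8), while the 5p arm is mostly discarded. Known targets of the guides include PPARG for miR-27 and MYC for miR-24, and the clusters are known for roles in vessels, immune cells and tumours. Because the clusters are copies of each other, each has an a or b form of miR-23 and miR-27, and both make the same miR-24-3p.

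The mature sequences of the 6 arms that were abundant enough to test are shown because the a and b forms are nearly the same molecule. They are RefSeq sequences (GRCh38.p14), with the seed in capitals.
hsa-miR-23a-3p: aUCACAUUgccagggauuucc
hsa-miR-23b-3p: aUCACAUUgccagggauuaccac
hsa-miR-27a-3p: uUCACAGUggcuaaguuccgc
hsa-miR-27b-3p: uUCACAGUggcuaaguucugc
hsa-miR-27a-5p: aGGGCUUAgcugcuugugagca
hsa-miR-24-3p: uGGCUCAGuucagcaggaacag
miR-23a-3p and miR-23b-3p share the seed UCACAUU and their first 18 bases. Counted from the 5′ end, they differ by U19A (base of miR-23a-3p first) and by the 2 bases that end the longer miR-23b-3p. miR-27a-3p and miR-27b-3p share the seed UCACAGU and also their first 18 bases, and differ by C19U alone (base of miR-27a-3p first). A read cut before base 19 therefore cannot be given to the a or the b form, and how such reads were counted is not given in the sources used here. Among the 2260 entries with a RefSeq sequence, only 1 further entry had the miR-23 seed, miR-23c from the X chromosome, which had 1 count over the 6 libraries. None of the others had the seed of miR-27 or miR-24.

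In RefSeq coordinates of GRCh38.p14, which is not the GRCh37.p5 build of the submitters' notes, the chromosome 19 hairpins span 373 bases on the minus strand (chr19:13836287-13836659). Those of chromosome 9 span 881 bases on the plus strand (chr9:95085208-95086088). In GENCODE release 29 the chromosome 19 hairpins lie in exons of the noncoding gene AC020916.1 on the same strand. MIR23B and MIR27B lie in an intron of C9orf3, an aminopeptidase gene, and MIR24-1 overlaps an exon of one of its transcripts. The 2 hairpins that make miR-27 are shown with both mature arms in capitals, since their arms were recovered in unlike proportions.
MIR27A (chr19:13836440-13836517, minus strand): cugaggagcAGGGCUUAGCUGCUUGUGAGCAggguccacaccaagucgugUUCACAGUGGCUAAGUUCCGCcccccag
MIR27B (chr9:95085445-95085541, plus strand): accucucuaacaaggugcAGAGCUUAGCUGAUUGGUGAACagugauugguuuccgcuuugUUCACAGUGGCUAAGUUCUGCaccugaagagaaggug

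The libraries were shallow, with 221981 to 417321 counts in the titled ETBF libraries and 200207 to 368923 in the titled untreated ones. All 9 listed gut epithelial miRNAs had counts in both groups, together 2.25% to 3.85% of the counts of titled ETBF libraries and 3.31% to 3.69% of titled untreated ones. Markers of other tissues were present too. The 5 muscle and liver miRNAs held 1.82% to 2.69% in titled ETBF libraries and 2.48% to 2.78% in titled untreated ones. The 7 endothelial and stromal miRNAs held 1.01% to 1.55% in titled ETBF libraries and 1.34% to 1.61% in titled untreated ones. The 7 blood-cell miRNAs held 0.0527% to 0.0807% in titled ETBF libraries and 0.0712% to 0.0724% in titled untreated ones. No list had a member at 0 in a whole group, so the presence of counts does not set the gut epithelial list apart. The highest listed marker in every library was miR-1 of the muscle and liver list. It had 3120 to 5578 counts in titled ETBF libraries and 3956 to 6411 in titled untreated ones. The gut epithelial miR-215-5p had 1 to 6 and 3 to 7 counts in titled ETBF and titled untreated libraries. The part of these other sources in the levels below was not tested. Exosome number and RNA per exosome cannot be told apart in such libraries. 3 entries that overlap structural RNAs, miR-7641, miR-6087 and miR-1246, took 0.531% to 0.927% of the titled ETBF counts and 16.1% to 28.3% of the titled untreated counts, which bears on any share of all counts. Titled ETBF replicate 1 stood apart from replicates 2 and 3 in several values below, and these are also given without it. Leaving out another titled ETBF library made several of the same differences smaller, and those values are given beside them.

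The 11 arms together made up 1.53%, 1.15% and 0.984% of the counts in titled ETBF replicates 1, 2 and 3, against 1.49%, 1.31% and 1.43% in titled untreated replicates 1, 2 and 3. The means were 1.22% ± 0.280 in titled ETBF libraries and 1.41% ± 0.0939 in titled untreated libraries (SD, n = 3 each, exact permutation test, two-sided, p = 0.4, where 0.1 is the smallest p this design allows). The groups overlapped, since titled ETBF replicate 1 was the highest of all 6. The difference of -0.185 percentage points was -0.339 without titled ETBF replicate 1 (exact permutation p = 0.1) and -0.0654 without titled ETBF replicate 3 (exact permutation p = 0.7). With miR-7641, miR-6087 and miR-1246 taken out of the denominator the means were 1.23% ± 0.285 and 1.80% ± 0.264 for the titled ETBF and titled untreated libraries. The groups then no longer overlapped (exact permutation p = 0.1, n = 3 each), but only narrowly. The highest titled ETBF value was 1.546% (replicate 1) and the lowest titled untreated value 1.557% (replicate 2).

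The arms differed widely in level, also within a cluster. Levels are given in CPM, a count relative to all counts of its library, on library sizes scaled by edgeR's TMM. They are numbers of reads and not of molecules, and the mature sequences are 21 to 23 bases long. miR-27b-3p was by far the most abundant, with a mean of 7874 CPM over the 6 libraries, rank 16 of the 195 entries tested. It alone held 58.6% ± 2.17 of the counts of the 11 arms in titled ETBF libraries and 61.7% ± 0.358 in titled untreated libraries (SD, n = 3 each). miR-24-3p followed at 2583 CPM, then miR-23a-3p at 1098 and miR-27a-3p at 945.4, then miR-23b-3p at 399.5 and miR-27a-5p at 110.2 CPM. Their ranks among the tested entries were 38, 58, 63, 90 and 132. The order was the same per base of mature sequence. The ranges of neighbours in this order were separate over the 6 libraries, apart from miR-23a-3p and miR-27a-3p, of which miR-23a-3p was the higher in 4 of 6. The place of miR-24-3p holds for its counts as deposited. Divided by its 2 loci, a setting chosen after the data were seen, its level averaged 1292 CPM with a range of 1096 to 1508, which overlapped that of miR-23a-3p (836.8 to 1465 CPM) and was the higher in 4 of 6 libraries.

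**Figure D1:**
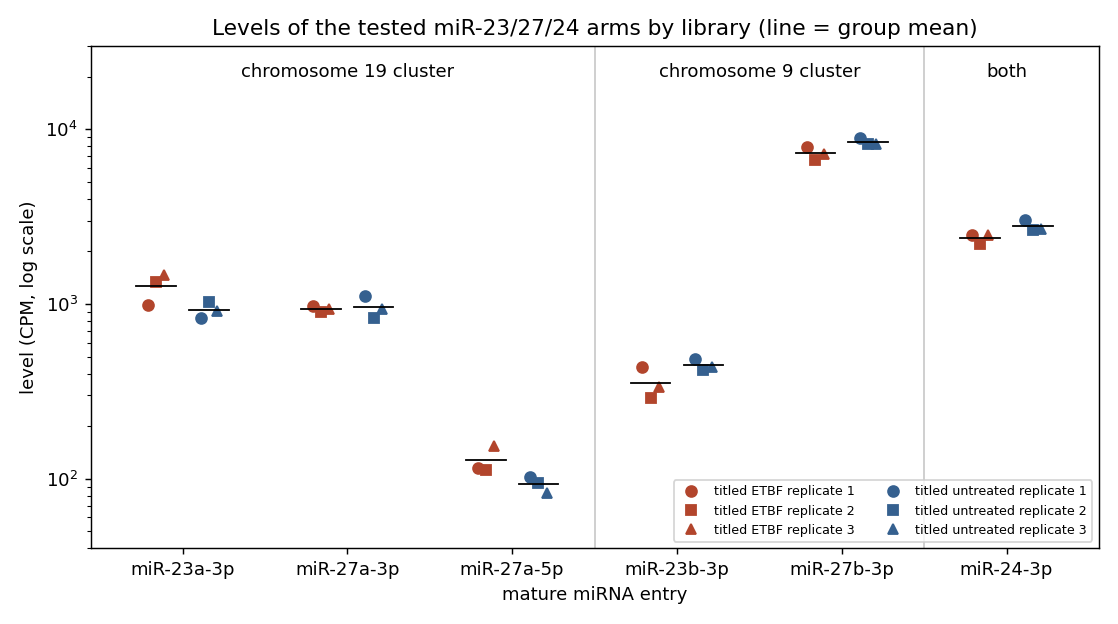
Levels in CPM (log scale) of the 6 tested arms in each library, titled ETBF left of titled untreated, with the group mean as a line and the arms ordered by cluster. miR-27b-3p lies highest in every library and miR-27a-5p lowest, and the a and b forms take opposite orders in miR-23 and miR-27.

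The remaining 5 arms were too scarce to test. miR-27b-5p held 7, 5 and 12 counts in titled ETBF replicates 1, 2 and 3 and 8, 8 and 9 counts in the titled untreated ones. miR-24-2-5p, the 5p arm of the chromosome 19 copy, held 8, 7 and 7 counts in the titled ETBF libraries and 5, 9 and 7 in the titled untreated ones. Those scarce arms overlapped between the groups. miR-24-1-5p (the chromosome 9 copy), miR-23a-5p and miR-23b-5p had at most 4 counts in any library, close to the floor of 3 counts, which was 8.29 to 14.6 CPM depending on the library.

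The a and b forms were balanced in opposite ways. For miR-27 the chromosome 9 form prevailed: miR-27a-3p was 10.9% to 11.9% of the sum of both forms in titled ETBF libraries and 9.12% to 11.0% in titled untreated libraries. For miR-23 the chromosome 19 form prevailed. miR-23a-3p was 69.5%, 82.3% and 81.4% of the sum of both forms in titled ETBF replicates 1, 2 and 3, with 95% exact binomial intervals of 64.9 to 73.9, 78.0 to 86.1 and 78.0 to 84.5. In titled untreated replicates 1, 2 and 3 it was 63.2%, 71.2% and 67.8%, with intervals of 57.2 to 69.0, 67.2 to 75.1 and 63.1 to 72.2. Intervals cover counting error only. The a form thus exceeded the b form in 6 of 6 libraries for miR-23, and the b form exceeded the a form in 6 of 6 for miR-27. The transcripts of the clusters were not measured.

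Within chromosome 19 the 2 guides stood near each other, with a ratio of miR-23a-3p to miR-27a-3p of 1.02, 1.49 and 1.57 in titled ETBF replicates 1, 2 and 3 and of 0.758, 1.25 and 0.979 in titled untreated replicates 1, 2 and 3. Within chromosome 9 they stood far apart, with a ratio of miR-23b-3p to miR-27b-3p of 0.0437 to 0.0553 in titled ETBF libraries and 0.0507 to 0.0549 in titled untreated libraries. These ratios compare read numbers of different molecules, whose recovery in library preparation can differ. Whether it was alike in both groups was not tested.

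miR-24-3p can come from either cluster and its 2 loci cannot be separated by its own reads. The deposited counts enter some such reads at each locus: miR-199a-3p, with 2 loci, held 2.0 times the counts of the identical miR-199b-3p, with 1 locus, in 4 of 6 libraries and 2.001 and 2.002 times in the others. The level of miR-24-3p may be inflated in that way. Its counts were even in 5 of 6 libraries, against 62.7% of the counts of at least 20 from entries with 2 loci and 50.6% of such counts from entries with 1 locus, which does not settle it. A group difference in miR-24-3p is unaffected where the inflation is the same in each library. The 5p arms are the part of the miR-24 hairpins that differs between the clusters, and they are shown, seed in capitals, for that reason.
hsa-miR-24-2-5p: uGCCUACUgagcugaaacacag
hsa-miR-24-1-5p: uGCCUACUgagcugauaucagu
The chromosome 19 arm, miR-24-2-5p, held 22 of the 26 counts of both 5p arms in titled ETBF libraries (84.6%, 95% exact interval 65.1 to 95.6) and 21 of 25 in titled untreated libraries (84.0%, interval 63.9 to 95.5). These intervals are for summed counts and leave out the spread between libraries. By replicate the arm held 8 of 8, 7 of 7 and 7 of 11 counts in titled ETBF libraries. In titled untreated libraries it held 5 of 5, 9 of 10 and 7 of 10.

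The 2 miR-27 hairpins differed in how much of their 5p arm was present. miR-27a-5p made up 10.6%, 11.1% and 14.2% of both miR-27a arms in titled ETBF replicates 1, 2 and 3, against 8.47%, 10.2% and 8.18% in titled untreated replicates 1, 2 and 3. miR-27b-5p made up 0.298% to 0.509% of both miR-27b arms in titled ETBF libraries and 0.267% to 0.435% in titled untreated libraries. In absolute terms miR-27a-5p had more counts than miR-27b-5p in 6 of 6 libraries, though its partner miR-27a-3p had fewer than miR-27b-3p in 6 of 6. Summed over each group, the 95% exact intervals of the 5p share were 10.1 to 14.5 for miR-27a and 0.249 to 0.577 for miR-27b in titled ETBF libraries. They were 7.21 to 11.1 and 0.218 to 0.496 in titled untreated libraries. The 5p arms of miR-24 were at 1.08% to 1.42% and 0.800% to 1.18% of all miR-24 counts in titled ETBF and titled untreated libraries. Most of those counts are miR-24-3p, which may be counted at both of its loci, so these shares may be too low.

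**Figure D2:**
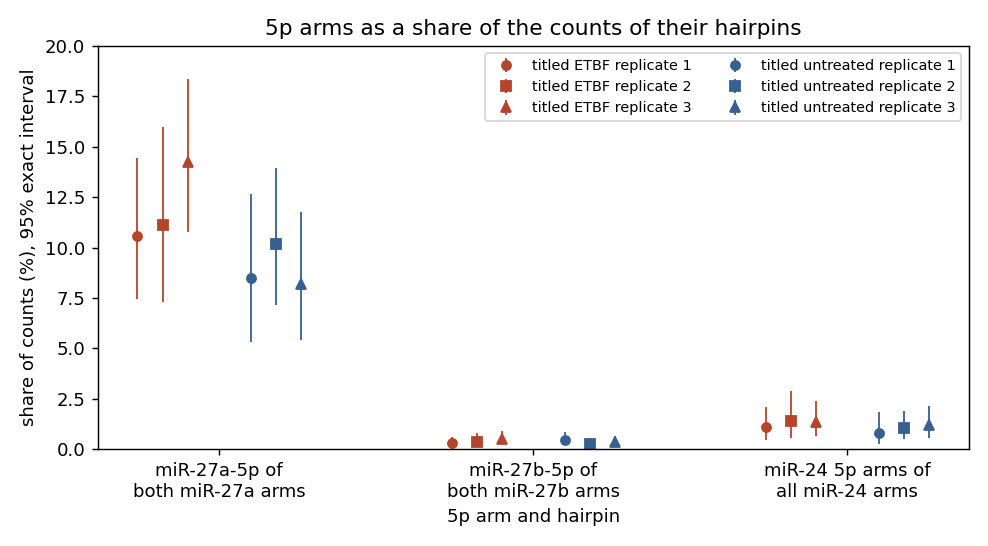
Share of the counts of a hairpin (or, for miR-24, of both hairpins) held by the 5p arm in each library, in percent with 95% exact binomial intervals, titled ETBF left of titled untreated. The miR-27a hairpin stands at 8.18% to 14.2% and the miR-27b hairpin under 1%, with intervals that do not meet.

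Between the titled groups no tested arm of the clusters passed the threshold, and their log2 fold changes ran from -0.32 to 0.48. Of the 6 tested arms, 0 passed an adjusted p under 0.05 in edgeR's quasi-likelihood test, against 14.4% of all 195 tested entries, and 3 had an unadjusted p under 0.05, against 33.8% of all tested entries. DESeq2's Wald test and limma-voom also called 0. The median log2 fold change of the 6 was -0.12, beside -0.03 for all tested entries. In TMM-scaled CPM 3 of the 6, miR-27b-3p, miR-24-3p and miR-27a-5p, were separated by group without overlap, against 39.0% of all tested entries. The first of these counts lies below the share of all entries and the counts of 3 in 6 lie above theirs, and nothing particular to the clusters is read from so few arms.

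miR-23a-3p leaned up in the libraries titled ETBF. It stood at 990.1, 1344 and 1465 CPM in titled ETBF replicates 1, 2 and 3, against 836.8, 1033 and 915.9 CPM in titled untreated replicates 1, 2 and 3. Replicates 2 and 3 of the titled ETBF group lay above every titled untreated library, and replicate 1 lay below the highest of them. Its log2 fold change was 0.44 with a standard error of 0.15 (95% interval 0.10 to 0.78, 1.36-fold, edgeR adjusted p = 0.0772), so it did not pass. It passed in 5 of 16 settings, among them without titled ETBF replicate 1 (0.56, adjusted p = 0.000572), with upper-quartile scaling (0.51, adjusted p = 0.0252), with no filter (0.43, adjusted p = 0.00974) and without the 3 structural RNA entries (0.49, adjusted p = 0.0477). Without titled ETBF replicate 3 the log2 fold change was 0.31 (edgeR adjusted p = 0.226). Over all alternatives the adjusted p ran from 0.000572 to 0.388.

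miR-23b-3p, its near-identical partner, leaned the other way. It stood at 434.4, 288.7 and 334.5 CPM in titled ETBF replicates 1, 2 and 3, against 486.5, 417.1 and 435.5 CPM in titled untreated replicates 1, 2 and 3. The groups overlapped through titled ETBF replicate 1 alone. The log2 fold change was -0.32 with a standard error of 0.16 (95% interval -0.68 to 0.04, edgeR adjusted p = 0.197). Without titled ETBF replicate 1 it was -0.53 (adjusted p = 0.0128) and without titled ETBF replicate 2 it was -0.17 (adjusted p = 0.599). Over the alternatives the adjusted p ran from 0.0128 to 0.599.

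The balance between both forms can be read within each library, free of scaling. The ratio of miR-23a-3p to miR-23b-3p was 2.27, 4.63 and 4.36 in titled ETBF replicates 1, 2 and 3, against 1.72, 2.47 and 2.10 in titled untreated replicates 1, 2 and 3. Titled ETBF replicates 2 and 3 lay above all titled untreated libraries and replicate 1 lay among them. The geometric means were 3.58 and 2.07 for the titled ETBF and titled untreated libraries, a 1.73-fold difference (0.79 on the log2 scale), which did not pass (exact permutation test, two-sided, p = 0.2, adjusted p = 0.28 over 7 ratios, n = 3 each). Without titled ETBF replicate 1 the log2 difference was 1.12 (exact permutation p = 0.1, the smallest that this design allows). Without titled ETBF replicate 2 it was 0.60 (exact permutation p = 0.3).

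miR-27b-3p stood at 7891, 6659 and 7260 CPM in titled ETBF replicates 1, 2 and 3, against 8903, 8253 and 8282 CPM in titled untreated replicates 1, 2 and 3. In these TMM-scaled values all titled ETBF libraries lay below all titled untreated ones. As a share of all counts, without that scaling, the groups overlapped. The share was 0.936%, 0.665% and 0.562% in titled ETBF replicates 1, 2 and 3. In titled untreated replicates 1, 2 and 3 it was 0.914%, 0.810% and 0.881%. All counts here include the 3 structural RNA entries, which took 0.531% to 0.927% of the titled ETBF counts and 16.1% to 28.3% of the titled untreated counts. Whether the groups overlap without those entries was not tested for this arm. The scaled difference was small, with a log2 fold change of -0.22, a standard error of 0.10 and a 95% interval of -0.44 to -0.00493 (edgeR adjusted p = 0.138). It passed without titled ETBF replicate 1 (-0.32, adjusted p = 0.0439) and in no other setting, with adjusted p up to 0.588. That highest value came without titled ETBF replicate 2, where the log2 fold change was -0.12.

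miR-24-3p followed miR-27b-3p closely. It stood at 2469, 2192 and 2496 CPM in titled ETBF replicates 1, 2 and 3, against 3016, 2635 and 2690 CPM in titled untreated replicates 1, 2 and 3, again with no overlap in scaled CPM. Unscaled, titled ETBF replicate 1 (733 of 250425 counts) lay above titled untreated replicates 2 (954 of 368923) and 3 (840 of 293445). These totals too include the 3 structural RNA entries. The log2 fold change of miR-24-3p was -0.22 with a standard error of 0.09 (95% interval -0.43 to -0.00654, edgeR adjusted p = 0.136), and it passed in none of the 16 settings. The ratio of miR-24-3p to the sum of miR-27a-3p and miR-27b-3p was 0.279 to 0.305 in titled ETBF libraries and 0.290 to 0.302 in titled untreated libraries, the tightest of the 7 ratios. The ratio of miR-24-3p to the sum of miR-23a-3p and miR-23b-3p was 1.73, 1.34 and 1.39 in titled ETBF replicates 1, 2 and 3, against 2.28, 1.82 and 1.99 in titled untreated ones. Those groups did not overlap, and the log2 difference was -0.45 (exact permutation p = 0.1, adjusted p = 0.28 over 7 ratios, n = 3 each).

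**Figure D3:**
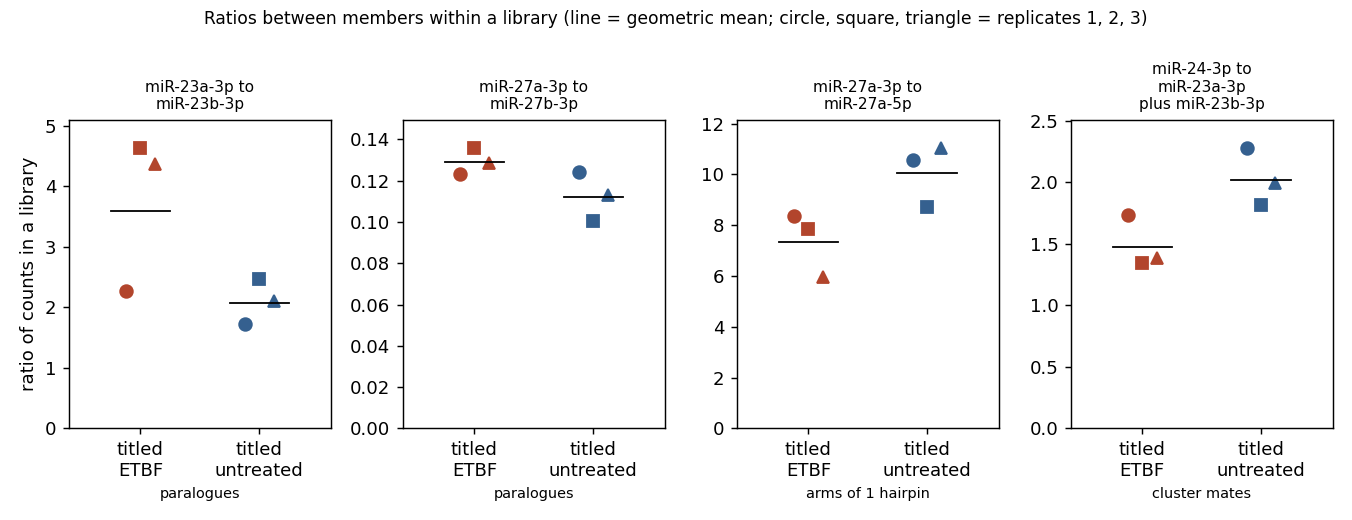
Ratios of counts between members in each library, titled ETBF left of titled untreated, with the geometric mean as a line. The ratio of miR-23a-3p to miR-23b-3p is 4.63 and 4.36 in titled ETBF replicates 2 and 3, and 2.27 in replicate 1, within the titled untreated range of 1.72 to 2.47.

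The arms of miR-27a did not lean alike. The guide miR-27a-3p stood at 969.9, 902.3 and 932.3 CPM in titled ETBF replicates 1, 2 and 3, against 1104, 828.6 and 935.1 CPM in titled untreated replicates 1, 2 and 3. The groups overlapped, and the log2 fold change was -0.02 with a 95% interval of -0.28 to 0.24 (SE 0.12, edgeR adjusted p = 0.885). Its sign is not fixed: the value was 0.04 with upper-quartile scaling and 0.02 without the 3 structural RNA entries. Leaving out titled ETBF replicate 2 gave 0.04, and leaving out titled untreated replicate 1 gave 0.11.

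The partner arm miR-27a-5p stood at 114.5, 112.8 and 154.9 CPM in titled ETBF replicates 1, 2 and 3, against 102.2, 93.9 and 83.3 CPM in titled untreated replicates 1, 2 and 3. All titled ETBF libraries were above all titled untreated ones, from 34, 25 and 50 counts in the titled ETBF libraries and 21, 34 and 26 counts in the titled untreated ones. Its log2 fold change was 0.48 with a standard error of 0.21 (95% interval -0.00342 to 0.96, edgeR adjusted p = 0.147), and it passed in none of the 16 settings.

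The arm ratio of miR-27a-3p to miR-27a-5p was 8.36, 7.86 and 5.97 in titled ETBF replicates 1, 2 and 3, against 10.6, 8.71 and 11.0 in titled untreated replicates 1, 2 and 3. The guide arm exceeded its partner less in every titled ETBF library than in any titled untreated one. The log2 difference was -0.46 (0.728-fold, exact permutation p = 0.1, adjusted p = 0.28 over 7 ratios, n = 3 each). It was -0.31 without titled ETBF replicate 3 (exact permutation p = 0.2).

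**Figure D4:**
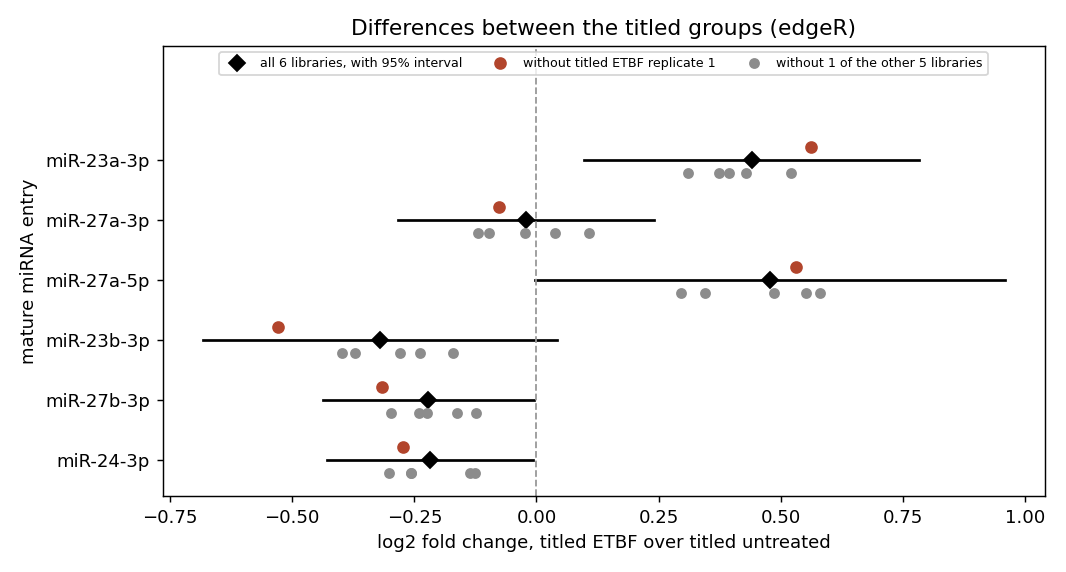
Log2 fold change of each tested arm, titled ETBF over titled untreated (diamond, line for the 95% interval), with the values after leaving out titled ETBF replicate 1 (red) and each of the other 5 libraries (grey). miR-23a-3p and miR-27a-5p lie above 0 in each case, miR-23b-3p, miR-27b-3p and miR-24-3p below 0, and miR-27a-3p on either side.

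Few relatives and genomic neighbours of the clusters were abundant enough to test. miR-128-3p, whose seed CACAGUG is that of miR-27 moved along by 1 base, stood at 522.2 ± 46.8 CPM in titled ETBF libraries and 509.1 ± 78.4 CPM in titled untreated libraries (SD, n = 3 each, log2 fold change 0.02, SE 0.14, edgeR adjusted p = 0.898). miR-181d-5p, whose hairpin lies with MIR181C on chromosome 19 beyond a gap of 38039 bases from MIR23A and on the other strand, stood at 97.0 ± 5.90 and 104.9 ± 7.37 CPM in titled ETBF and titled untreated libraries (log2 fold change -0.13, SE 0.19, edgeR adjusted p = 0.660). Of the 2 tested relatives 0 passed, against 14.4% of all 195 tested entries, and nothing is read from so few. Scarcer still were the arms of miR-181c, with 2 to 6 counts in titled ETBF libraries and 2 to 13 in titled untreated ones. miR-3074, read from the strand opposite to MIR24-1, had 2 counts over the 6 libraries for its 5p arm and 0 for its 3p arm.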

How the data were processed

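The build GRCh37.p5 and the tools Trimmomatic, FastQC and featureCounts stand in the submitters' processing notes. Versions, aligner and the handling of reads with several positions are not given in the sources used. The labels' protocols name 100 ng of total RNA per library. The deposited files hold raw counts per mature miRNA entry. edgeR's filterByExpr (minimum count 10) left 195 of 2575 entries, holding at least 99.6% of each library's counts. They were scaled by TMM (factors 0.776 to 1.19) and tested together, two-sided, by the quasi-likelihood F-test of edgeR, with p adjusted over all 195 by Benjamini-Hochberg. The standard error is the size of the log2 fold change divided by the square root of F, and 95% intervals use the fit's degrees of freedom. Ratios are of raw counts plus 0.5 and were compared by exact permutation. Of the 11 arms, 5 were below the filter. Members, lists and tests were chosen with earlier results of these data known. Named entries are the 11 arms, the listed relatives, and for each tested arm the 2 entries with the nearest profile. In counts simulated for the comparison of the titled groups, 197 entries were tested and 82.8% of the 29 changed 2-fold were called. In a separate simulation with no change, 0 of 198 tested entries were called. Both simulations drew counts from the overall means with a common dispersion, without the group difference in the structural RNA entries. They do not show how often differences as small as those of the tested arms would be called. Sequences are from RefSeq (GRCh38.p14), where all 11 arms matched by name. Tools were edgeR 4.0.16, DESeq2 1.42.0 and limma 3.58.1 in R 4.3.3.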

Additional observations from a re-analysis of the deposited data

How the results depend on the processing

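All alternatives were listed with earlier results of these data known. The count of arms past the threshold, 0 of 6, was 1 (miR-23a-3p) with upper-quartile scaling, with no filter, with the replicate block and without miR-7641, miR-6087 and miR-1246, and it ran from 0 to 3 as single libraries were left out. The 3 were miR-23a-3p, miR-23b-3p and miR-27b-3p without titled ETBF replicate 1. Entries called over the whole table rose in the same settings. They went from 28 of 195 (14.4%) to 42 with upper-quartile scaling and to 51 with no filter, where more entries were tested. They were 38 with the replicate block and 34 without the 3 structural RNA entries. As single libraries were left out they ran from 17 (without titled ETBF replicate 3 or titled untreated replicate 3) to 59 (without titled ETBF replicate 1). Nothing particular to the clusters is read from the added calls. The log2 fold change of miR-27a-3p turned to 0.0406 with upper-quartile scaling and to 0.0249 without the 3 structural RNA entries, and ran from -0.120 to 0.109 as libraries were left out. The log2 difference in the ratio of miR-24-3p to both miR-27 guides ran from -0.0506 to 0.0140 in the same way. The cause was not tested. Of 90 fold changes recomputed, 79 kept sign and side of the threshold, 7 passed and 4 changed sign. Scaling moved the median of all entries by -0.07 to 0.07.

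The replicate numbers gave no clear sign of pairing: same-numbered libraries correlated in their deviations at 0.15, 0.07 and -0.01. With 3 libraries per group this cannot exclude a pairing. With the replicate block miR-23a-3p had a log2 fold change of 0.44 (edgeR adjusted p = 0.0200). The replicate block gave 38 calls over the whole table, 26 of them among the 28, and paired ratio differences had p of 0.25 or more, the smallest that signs of 3 pairs allow. Depth limits the 5p arms other than miR-27a-5p, whose counts stayed at 12 or below.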

Other observations

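The profiles of the members over the 6 libraries, each centred on its own mean of log2 CPM, differed in how close they lay to each other. The root mean square difference between miR-27b-3p and miR-24-3p was 0.0469 on the log2 scale, the smallest of the 15 pairs of tested arms, and that between miR-23a-3p and miR-23b-3p was 0.536, the largest. miR-23a-3p and its chromosome 19 mate miR-27a-3p differed by 0.365, and miR-23b-3p and its chromosome 9 mate miR-27b-3p by 0.127. Flat and abundant entries lie close to each other by this measure, which is a description over 6 libraries that share their scaling.

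Among all tested entries the nearest to miR-24-3p were miR-199b-3p (0.0272) and miR-199a-3p (0.0273), against a median of 0.280 over the others. miR-27b-3p was nearest to miR-30a-5p (0.0254), then miR-24-3p. miR-23b-3p was nearest to miR-205-5p (0.0810) and miR-125a-5p (0.0874). The nearest to miR-23a-3p were miR-182-5p (0.0939), whose own log2 fold change was 0.44 (edgeR adjusted p = 0.0757), and miR-584-5p (0.0988). miR-27a-3p lay nearest to miR-26b-5p (0.0812) and miR-425-5p (0.0914), and miR-27a-5p to miR-148a-5p (0.101) and miR-10a-5p (0.116). miR-199a-3p and miR-199b-3p share their mature sequence and count as 1 profile.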
